A study of Mus musculus with 20 samples.

Results

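The RNA of 9 complement genes, C1qa, C1qb, C1qc, C2, C3, C4b, Cfb, C3ar1 and C5ar1, was followed in the abdominal aorta of 20 mice. They were chosen by symbol from the 43422 Ensembl genes with a value in every mouse, and all 9 were found. The mice formed 4 groups of 5, namely WT saline, WT Ang II, Plod1-/- saline and Plod1-/- Ang II, all C57BL/6 and 6 months old per the labels. The methods name the substrain, C57Bl/6NCrl, and give a younger age at the start of infusion. Ang II, a peptide that constricts vessels and raises blood pressure, was infused at 1000 ng/kg per min, and every aorta was taken on day 14 of infusion. Plod1 encodes lysyl hydroxylase 1, an enzyme that modifies lysines of procollagen, and the study asked how its loss alters the aorta under Ang II. Per its methods, the mice were littermates of heterozygous parents, so Plod1-/- mice lacked the gene in every cell type and not only in the vessel wall.

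Complement is a cascade of proteins that tags particles and damaged cells for removal and calls in leukocytes. In the classical pathway C1q, built from the chains of C1qa, C1qb and C1qc, binds its target and C1r and C1s then cleave C4 and C2, whose fragments form an enzyme that cleaves C3. In the alternative pathway factor B, encoded by Cfb, takes the place of C2 on deposited C3b, with the help of factor D and properdin. The small fragments C3a and C5a act on the receptors encoded by C3ar1 and C5ar1 on myeloid cells. The liver makes most of the complement protein in plasma, but tissue macrophages are a main source of C1q, and fibroblasts and other stromal cells can make C3 and C4.

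Levels are given in FPKM, the density of sequenced fragments scaled to transcript length and library size, and replicates are always listed from 1 to 5. Plod1 read 22.8 to 29.7 FPKM in the 10 WT mice and at most 0.0415 FPKM in the 10 Plod1-/- mice. Smooth muscle markers, which define the tissue, summed to 2297 to 20700 FPKM over their 6 genes in all 20 mice. The study used male mice, yet Xist, an RNA of female cells, read 15.1 FPKM in Plod1-/- saline replicate 5 and 7.93 FPKM in Plod1-/- Ang II replicate 1, against at most 0.0328 FPKM elsewhere. WT Ang II replicate 1 stood apart from its group in several of the complement genes and is named where it decides a value. Genes were compared with limma on log2(FPKM + 1), which understates changes of low genes, and a gene was called when its Benjamini-Hochberg adjusted p-value over all genes tested was below 0.05 and its log2 difference was above 1 in size.

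The genes of the C1q chains lie next to each other on the minus strand of chromosome 4 (GRCm38), C1qb at 136880129-136886187, C1qc at 136889804-136893065 and C1qa at 136895917-136898803. The cluster spans 18.7 kb and lies 11.0 Mb from Plod1. C4b (34728380-34743882), Cfb (34856374-34862518) and C2 (34862604-34898265) lie on chromosome 17 within 169.9 kb, with 85 bases between Cfb and C2, and C3 (57203970-57228136) lies farther along that chromosome. C3ar1 lies on chromosome 6 (122847138-122856161) and C5ar1 on chromosome 7 (16246743-16259540), all of them on the minus strand. Gm20547 overlaps both Cfb and C2 on their own strand and Zbtb12 overlaps C2 on the other strand, so reads of these genes could be shared. C4b shares 16.5% of the 5280 windows of 100 bases in its transcript with C4a, a near copy 65.2 kb away that read at most 0.56 FPKM, so the split between these copies is uncertain.

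RefSeq (GRCm38.p6) gives promoter windows of 300 bases, 250 before and 50 from the transcript start, for C1qb, C1qc, C3, C3ar1 and C5ar1, and they are shown because C1qb, C1qc, C3ar1 and C5ar1 moved together in the mice below while C3 did not. The windows lie at chr4:136886151-136886450, chr4:136892865-136893164, chr17:57228087-57228386, chr6:122856108-122856407 and chr7:16259289-16259588, all on the minus strand, and are written 5′ to 3′ along the gene. C1qa, C2, C4b and Cfb have no window shown. Capitals mark the match to a motif, searched on both strands: GAGGAA (the ETS type bound by PU.1, a factor of myeloid cells) in C1qb and, on the opposite strand, in C1qc; TTGCNNAA (C/EBP type) in C3; GGNNTTTCC (NF-kB type) in C3ar1, on the opposite strand; and GAAANNGAA (interferon response type) in C5ar1, on the opposite strand.
C1qb: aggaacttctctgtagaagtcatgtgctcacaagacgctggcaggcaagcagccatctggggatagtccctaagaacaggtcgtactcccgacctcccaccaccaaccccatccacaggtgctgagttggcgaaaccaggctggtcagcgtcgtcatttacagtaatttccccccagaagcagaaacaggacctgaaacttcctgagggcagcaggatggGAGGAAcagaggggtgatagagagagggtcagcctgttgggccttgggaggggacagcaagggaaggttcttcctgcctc
C1qc: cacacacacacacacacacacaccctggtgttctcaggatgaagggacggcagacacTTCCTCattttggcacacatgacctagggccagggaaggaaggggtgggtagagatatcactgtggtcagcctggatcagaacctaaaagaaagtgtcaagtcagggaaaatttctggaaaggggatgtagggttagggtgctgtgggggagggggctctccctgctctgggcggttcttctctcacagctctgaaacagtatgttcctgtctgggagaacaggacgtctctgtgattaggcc
C3: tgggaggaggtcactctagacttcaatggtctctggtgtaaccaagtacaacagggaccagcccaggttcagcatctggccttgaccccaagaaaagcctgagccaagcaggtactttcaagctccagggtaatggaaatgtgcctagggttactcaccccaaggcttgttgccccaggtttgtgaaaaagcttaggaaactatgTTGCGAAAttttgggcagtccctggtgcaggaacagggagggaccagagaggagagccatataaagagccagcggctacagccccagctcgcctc
C3ar1: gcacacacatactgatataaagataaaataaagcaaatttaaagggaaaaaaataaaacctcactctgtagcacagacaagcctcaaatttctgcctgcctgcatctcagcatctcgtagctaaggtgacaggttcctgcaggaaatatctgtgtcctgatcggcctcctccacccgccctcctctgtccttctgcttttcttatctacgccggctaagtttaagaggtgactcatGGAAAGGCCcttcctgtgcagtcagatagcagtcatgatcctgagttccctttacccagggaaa
C5ar1: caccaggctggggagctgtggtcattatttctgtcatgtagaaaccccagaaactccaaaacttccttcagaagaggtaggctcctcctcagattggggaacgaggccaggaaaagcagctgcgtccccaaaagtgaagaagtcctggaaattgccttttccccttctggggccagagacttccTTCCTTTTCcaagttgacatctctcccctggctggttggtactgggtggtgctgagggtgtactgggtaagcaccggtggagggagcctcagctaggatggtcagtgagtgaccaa
These letters start 30 bases before the transcript start in C1qb, 193 in C1qc, 45 in C3, 14 in C3ar1 and 66 in C5ar1. Among all 32851 windows of this length, GAGGAA stood in 28.3%, TTGCNNAA in 10.8%, GGNNTTTCC in 5.82% and GAAANNGAA in 8.56%. TTCNNNGAA (STAT type), found in 8.30% of windows, stood in none of the 5. A match describes the letters of the window and no more.

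In Plod1-/- mice, 6 of the 7 complement genes that could be tested rose under Ang II, namely C1qa, C1qb, C1qc, C4b, C3ar1 and C5ar1, where 8.38% of the 12333 genes tested were called higher. None was called lower by limma, against 5.51% of all genes, and 0 were lower at an unadjusted p below 0.05. In 5 of the 6, C4b being the exception, every Ang II-treated mouse lay above every saline-treated mouse, which held for 14.2% of all genes tested. In WT mice C3 was called higher under Ang II, 1 of 7 against 6.38% of 11994 genes, and none was called lower, against 2.28%, with 4 genes higher and 0 lower at an unadjusted p below 0.05. In C3 and C4b every Ang II-treated mouse lay above every saline-treated mouse, 2 of 7 against 10.4% of all genes. C2 and Cfb never reached the filter of 1 FPKM in 5 mice of a comparison and are described apart.

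Between the Ang II-treated groups, C1qa, C1qb, C1qc, C3ar1 and C5ar1 were higher in Plod1-/- than in WT mice, 5 of 7 against 7.45% of 12356 genes, and none was called lower, against 3.67%. In each of them the groups overlapped, so that 0 of 7 lay wholly above the WT range, which held for 10.4% of all genes. Under saline none of the 7 was called higher or lower by limma, against 0.358% and 0.408% of 11999 genes, and none lay above the WT range without overlap, against 4.22%. At an unadjusted p below 0.05, C4b was higher and C3ar1 and C5ar1 were lower in Plod1-/- saline mice. The test of the difference between the 2 responses to Ang II, fitted on all 20 mice, called the same 5 genes higher in Plod1-/- mice that differed under Ang II, 5 of 7 against 9.69% of 13263 genes, and none lower, against 6.36%. The comparisons share groups of mice, so these counts are not independent of each other.

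**Figure D1:**
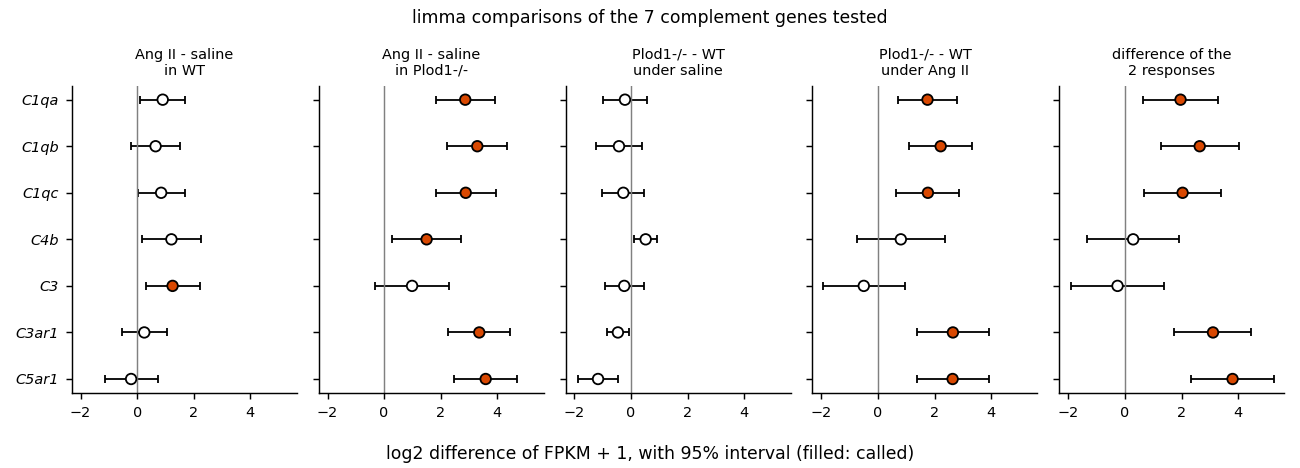
log2 differences of FPKM + 1 (horizontal axis) with 95% intervals for the 7 complement genes tested, in the 4 comparisons of groups and in the difference of the 2 responses; filled points were called. The C1q chains and both receptors are filled in 3 panels, C3 in the WT panel and C4b in the Plod1-/- response.

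The C1q chains, the recognition unit of the classical pathway, were on average the most abundant of the 9 RNAs in Plod1-/- Ang II aortas. C1qa (ENSMUSG00000036887) read 128, 79.8, 88.8, 97.2 and 70.7 FPKM in WT saline and 481, 169.9, 109, 102 and 159.9 FPKM in WT Ang II mice. In Plod1-/- mice it read 71.3, 112, 168, 33.8 and 64.0 FPKM under saline and 226, 659, 1052, 760.2 and 539 FPKM under Ang II. Plod1-/- Ang II replicate 1, a library with Xist RNA, was the lowest of its group and lay below WT Ang II replicate 1. The other 4 of its group lay above all other mice. The mean was 647 ± 302 (SD, n = 5) FPKM in Ang II-treated against 89.9 ± 51.9 (SD, n = 5) FPKM in Plod1-/- saline mice, a log2 difference of 2.87 ± 0.47 (SE; limma adjusted p = 0.00089).

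C1qb (ENSMUSG00000036905), the gene of the B chain, showed the largest rise of the chains in Plod1-/- mice. It read 94.0, 67.7, 68.2, 86.1 and 56.5 FPKM in WT saline, 358, 112, 71.5, 63.6 and 113 FPKM in WT Ang II, 48.3, 76.6, 126, 23.8 and 41.6 FPKM in Plod1-/- saline and 213, 636, 948, 742 and 484 FPKM in Plod1-/- Ang II mice. Every Plod1-/- Ang II mouse was above every saline-treated mouse of either genotype. The log2 difference was 3.29 ± 0.48 (SE; limma adjusted p = 0.00044) in Plod1-/- mice and 0.65 ± 0.39 (SE; adjusted p = 0.195) in WT mice, and the difference between the responses was 2.64 ± 0.66 (SE; adjusted p = 0.0048). C1qc (ENSMUSG00000036896), the gene of the C chain, ran from 28.5 to 52.0 FPKM in WT saline, from 38.7 to 197 in WT Ang II, from 14.0 to 63.0 in Plod1-/- saline and from 80.2 to 404 in Plod1-/- Ang II mice. Its log2 difference in Plod1-/- mice was 2.88 ± 0.48 (SE; adjusted p = 0.0009).

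In WT mice the Ang II response of C1qa was 0.90 on the log2 scale (95% interval 0.11 to 1.70, adjusted p = 0.068) and that of C1qc was 0.85 (0.02 to 1.67, adjusted p = 0.092), neither of them called. Without WT Ang II replicate 1 these values were 0.53 and 0.46, and without WT Ang II replicate 4 both genes were called, at 1.09 and 1.04. Under Ang II, Plod1-/- mice exceeded WT mice by 1.75 ± 0.48 (SE) in C1qa, 2.22 ± 0.50 in C1qb and 1.76 ± 0.50 in C1qc on the log2 scale (limma adjusted p = 0.020, 0.0096 and 0.024). C1qb kept its call without any 1 mouse. C1qa lost it without WT Ang II replicate 3 or Plod1-/- Ang II replicate 3 or 4, and C1qc without WT Ang II replicate 2, 3 or 5 or Plod1-/- Ang II replicate 3 or 4.

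**Figure D2:**
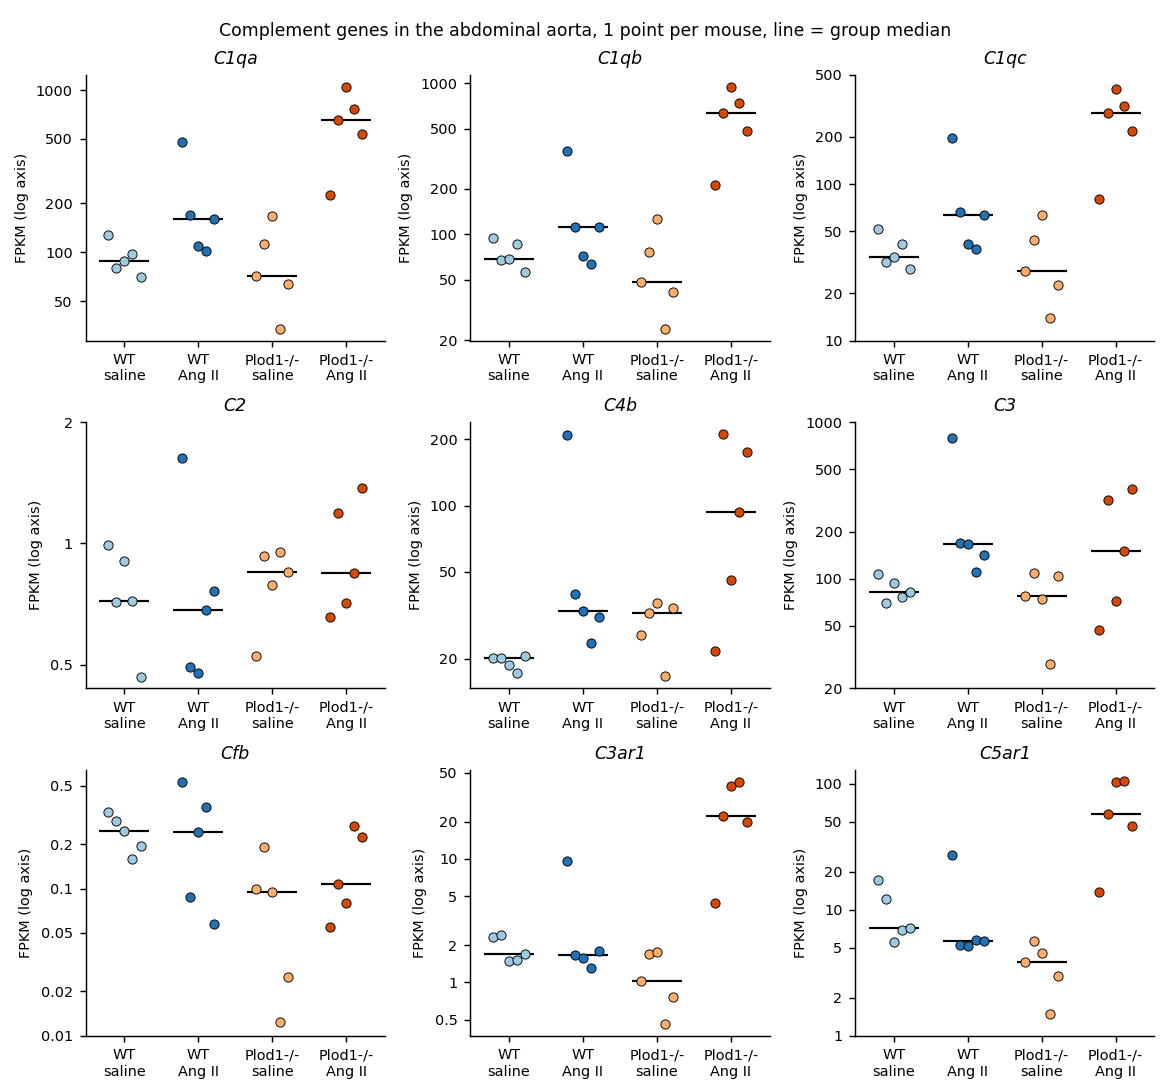
FPKM of the 9 complement genes (vertical log axes, each panel with its own range) in the 4 groups; each point is 1 mouse, in the order of replicates from left to right, and the line is the group median. In C1qa, C1qb, C1qc, C3ar1 and C5ar1 all Plod1-/- Ang II mice sit above all Plod1-/- saline mice, and in C3 and C4b they spread over the range of the other groups.

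C3ar1 (ENSMUSG00000040552), the gene of the C3a receptor, was a low RNA in 3 of the groups and rose in Plod1-/- Ang II mice. It read 2.33, 2.41, 1.499, 1.53 and 1.71 FPKM in WT saline, 9.56, 1.66, 1.57, 1.31 and 1.79 FPKM in WT Ang II, 1.03, 1.69, 1.75, 0.464 and 0.762 FPKM in Plod1-/- saline and 4.39, 22.2, 38.7, 42.2 and 20.0 FPKM in Plod1-/- Ang II mice. All but replicate 1 of the last group lay above the other 15 mice. The mean rose 22.4-fold in Plod1-/- mice, with a log2 difference of 3.36 ± 0.50 (SE; limma adjusted p = 0.00047), against 0.25 ± 0.36 (SE; adjusted p = 0.587) in WT mice. Without WT Ang II replicate 1, the WT value turned to -0.16.

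C5ar1 (ENSMUSG00000049130), the gene of the C5a receptor, gave the largest difference of the 7 between the responses. It read 17.3, 12.1, 5.52, 6.90 and 7.21 FPKM in WT saline, 27.1, 5.25, 5.11, 5.78 and 5.64 FPKM in WT Ang II, 3.85, 5.69, 4.56, 1.49 and 2.97 FPKM in Plod1-/- saline and 13.9, 57.0, 103, 104.6 and 46.4 FPKM in Plod1-/- Ang II mice. In the WT Ang II group 4 mice lay within the range of the saline-treated groups and replicate 1 above it. The log2 difference was 3.59 ± 0.50 (SE; limma adjusted p = 0.00035) in Plod1-/- mice, -0.21 ± 0.43 (SE; adjusted p = 0.701) in WT mice and 3.80 ± 0.70 (SE; adjusted p = 0.00065) between the responses. Under Ang II, C3ar1 was higher in Plod1-/- mice by 2.65 ± 0.58 (SE; adjusted p = 0.0087) and C5ar1 by 2.64 ± 0.58 (SE; adjusted p = 0.0085), and both calls were kept without any 1 mouse.

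Under saline the receptors had lower means in Plod1-/- than in WT mice, short of the threshold. In Plod1-/- saline mice C5ar1 read 3.71 ± 1.59 (SD, n = 5) FPKM against 9.81 ± 4.87 (SD, n = 5) FPKM in WT mice, a log2 difference of -1.17 (95% interval -1.86 to -0.47, limma adjusted p = 0.053). Without WT saline replicate 3 this difference was called, at -1.32. That of C3ar1 was -0.47 (95% interval -0.87 to -0.06, adjusted p = 0.131), and those of C1qa, C1qb and C1qc were -0.22, -0.43 and -0.27, with 95% intervals that held 0.

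C3 (ENSMUSG00000024164) encodes the central protein of the cascade, which all pathways cleave. It read 107, 69.7, 94.5, 76.4 and 82.4 FPKM in WT saline, 789, 170.0, 167, 110.1 and 141 FPKM in WT Ang II, 78.0, 109, 74.5, 28.6 and 104 FPKM in Plod1-/- saline and 46.9, 316, 72.2, 149.9 and 372 FPKM in Plod1-/- Ang II mice. Every WT Ang II mouse exceeded every WT saline mouse, replicate 1 by far the most, whereas the Plod1-/- groups overlapped, with Ang II-treated replicates 1 and 3 inside the saline range. The log2 difference was 1.25 ± 0.44 (SE; limma adjusted p = 0.042) in WT and 0.99 ± 0.59 (SE; adjusted p = 0.198) in Plod1-/- mice. The WT call was lost on leaving out any 1 mouse other than WT Ang II replicate 4, and without WT Ang II replicate 1 the value was 0.76, below the size required (adjusted p = 0.00997, within 0.0071 to 0.116 over the alternatives). The responses of the genotypes differed by -0.26 (95% interval -1.89 to 1.37, adjusted p = 0.813), and the Ang II-treated groups by -0.50 (-1.96 to 0.95, adjusted p = 0.583), intervals that leave room for a difference of either sign.

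C4b (ENSMUSG00000073418), the gene of complement C4, moved with C3 from mouse to mouse. It read 20.3, 20.1, 18.7, 17.1 and 20.5 FPKM in WT saline, 209.5, 39.5, 33.0, 23.7 and 30.9 FPKM in WT Ang II, 25.8, 32.5, 36.0, 16.7 and 34.1 FPKM in Plod1-/- saline and 21.7, 211, 45.7, 93.3 and 175 FPKM in Plod1-/- Ang II mice. The WT groups did not overlap, yet the log2 difference of 1.21 ± 0.47 (SE; limma adjusted p = 0.060) was not called. In Plod1-/- mice replicate 1 of the Ang II-treated group lay inside the saline range, and the difference of 1.502 ± 0.56 (SE; adjusted p = 0.049) was called. That call was lost in 8 of the 10 fits that left out 1 mouse, all but those without Plod1-/- Ang II replicate 1 or 3, and with no filter (adjusted p = 0.116), variances per gene (adjusted p = 0.091) and quantile normalization (adjusted p = 0.054), 11 of 18 alternatives in all, over which the adjusted p ran from 0.0017 to 0.116. The responses of the genotypes differed by 0.29 (95% interval -1.33 to 1.91, adjusted p = 0.789).

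C2 and Cfb, which supply the proteases of the classical and the alternative C3 convertase, had low values in all groups. Their reads could be shared with Gm20547, as given above, and the part of this in the low values was not tested. C2 (ENSMUSG00000024371) ran from 0.466 to 1.63 FPKM over the 20 mice, and the permutation p-values of its 4 comparisons lay between 0.429 and 0.897 (two-sided exact permutation tests, smallest possible p 0.00794). Cfb (ENSMUSG00000090231) read 0.334, 0.288, 0.248, 0.158 and 0.194 FPKM in WT saline mice and 0.0994, 0.191, 0.0944, 0.0124 and 0.0253 FPKM in Plod1-/- saline mice. Those groups overlapped in 1 mouse of each, and their means of 0.244 ± 0.070 and 0.0844 ± 0.071 (SD, n = 5) FPKM gave an unadjusted p of 0.016 in the two-sided exact permutation test, the smallest of 8 such tests on these genes. Behind the Cfb values stood 1 to 41 fragments per mouse, against 46 to 171 for C2. Under Ang II Cfb ran from 0.0573 to 0.534 FPKM in WT and from 0.0545 to 0.267 FPKM in Plod1-/- mice (exact permutation p = 0.318).

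The genes differed in how they moved with markers of macrophages. In Plod1-/- mice 7 of 8 macrophage markers rose under Ang II (Adgre1, Cd68, Csf1r, Cd14, Fcgr1, Mrc1 and Cd163), against 8.38% of all genes. Mertk was the one not called. In WT mice none of the 8 rose, against 6.38% of all genes. Mertk fell there by 1.39 on the log2 scale, where 2.28% of all genes were called lower. Their summed level ran from 92.7 to 143 FPKM in WT saline, from 72.2 to 321 in WT Ang II, from 55.7 to 82.0 in Plod1-/- saline and from 161 to 843 FPKM in Plod1-/- Ang II mice, and none of the markers was at 0 in a whole group. The sum of 321 FPKM belonged to WT Ang II replicate 1, where the other 4 mice of the group had at most 88.0, and the sum of 161 FPKM to Plod1-/- Ang II replicate 1, where the others had at least 455. These are the mice in which C1q and receptor levels lay outside the rest of their groups. Of 4 resident macrophage markers 3 were tested, with 1 called higher in the Plod1-/- and 0 in the WT response. Their median log2 difference in the Plod1-/- response was 0.99, against 2.85 for the 8 markers above. The part of macrophage number in the results was not tested, and in whole aortas more cells of a type and more RNA per cell cannot be told apart.

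**Figure D3:**
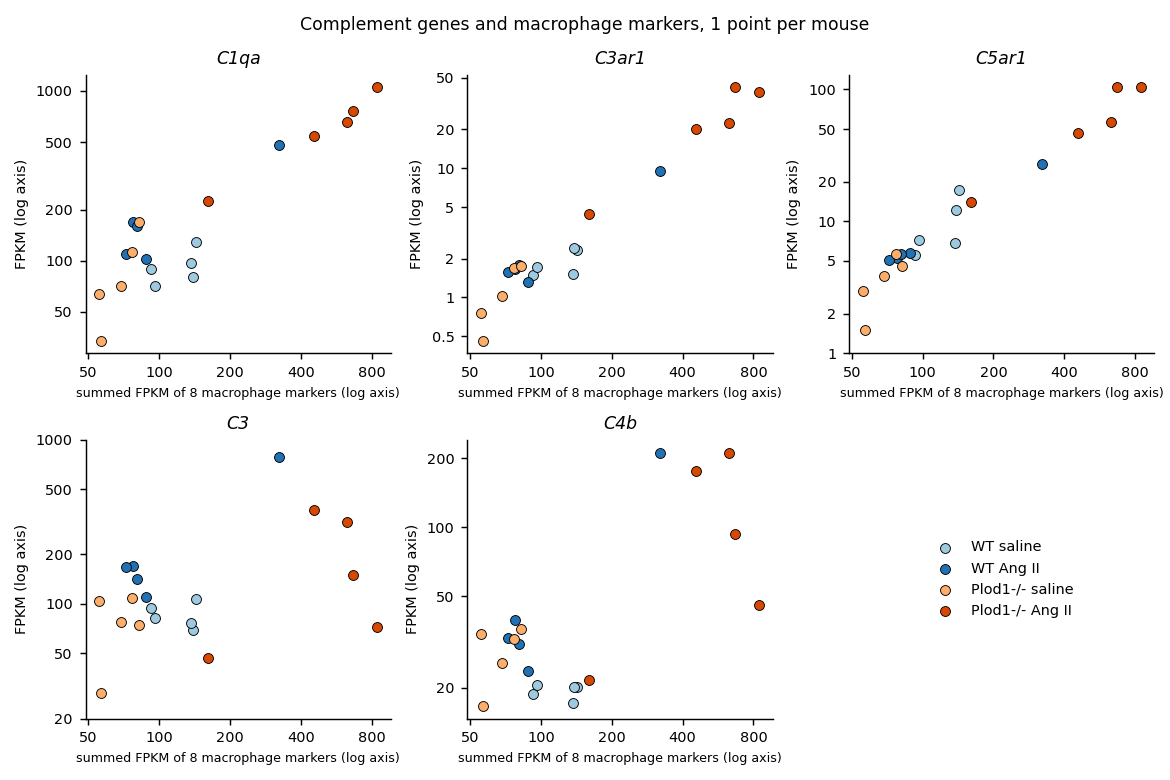
FPKM of C1qa, C3ar1, C5ar1, C3 and C4b (vertical log axes) against the summed FPKM of 8 macrophage markers (horizontal log axis), 1 point per mouse. C1qa and both receptors lie along a rising band that both mice numbered 1 of the Ang II-treated groups share, while C3 takes values from 46.9 to 372 FPKM among the Plod1-/- Ang II mice.

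Set against the macrophage marker sum of the same mouse, which does not include them, the receptors had their highest average ratio in Plod1-/- Ang II mice, with overlap. The level of C3ar1 relative to the sum, in percent, was 4.32 ± 1.35% (SD, n = 5) there, against 1.58 ± 0.27% in WT saline, 2.201 ± 0.53% in WT Ang II and 1.61 ± 0.57% in Plod1-/- saline mice. That of C5ar1 was 11.2 ± 2.9%, against 7.86 ± 2.75%, 7.17 ± 0.74% and 5.31 ± 1.72%. The summed C1q chains were 1.71 ± 0.30 times the marker sum in WT saline, 3.46 ± 0.87 times in WT Ang II, 2.62 ± 1.16 times in Plod1-/- saline and 2.81 ± 0.26 times in Plod1-/- Ang II mice. All WT saline mice, at 1.29 to 2.06, lay below both Ang II-treated groups, and the other 3 groups overlapped. Adgre1, the gene of the macrophage marker F4/80, gave another scale, on which C3 was 7.16 ± 4.49 times Adgre1 in Plod1-/- Ang II mice and 31.4 to 33.6 times on average in the other groups, without overlap. C1qa also had its lowest average on that scale there, 23.5 ± 11.0 times Adgre1 against 34.9, 26.6 and 35.5 times in WT saline, WT Ang II and Plod1-/- saline mice, but its ranges overlapped. These ratios were examined after the values were seen and carry no test.

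Other cell types also moved with the groups. Neutrophil markers, whose cells carry C5a receptors, summed to 155 to 711 FPKM in Plod1-/- Ang II and at most 58.9 FPKM in saline-treated mice. In WT Ang II mice they summed to 195 FPKM in replicate 1 and 6.60 to 52.3 FPKM in the rest. Of the 6 listed, 4 reached the filter in the Plod1-/- comparison and all 4 rose, against 8.38% of all genes. In Plod1-/- saline mice 4 of the 6 were below 1 FPKM throughout, so some passed the filter only through the Ang II-treated mice. The count was thus partly fixed by the filter. Monocyte markers summed to 37.3 to 334 FPKM in Plod1-/- Ang II mice, 91.4 FPKM in WT Ang II replicate 1 and at most 10.1 FPKM elsewhere. Fibroblast markers summed to 248 to 860.1 FPKM in the 20 mice, with none of 5 called in either response. Adipocyte markers, called higher in 4 of 4 in the WT and 2 of 5 in the Plod1-/- response, reached 2239 FPKM in WT Ang II mice and 2642 FPKM in Plod1-/- Ang II mice. Brown adipocyte markers were called higher in 4 of 4 in the WT response and lower in 4 of 4 in Plod1-/- against WT mice under Ang II (median log2 difference -3.14). Smooth muscle markers were called lower in 6 of 6 in the Plod1-/- response (median log2 difference -1.89) and 2 of 6 in the WT response. Erythroid markers were called higher in 5 of 5 in the Plod1-/- response (median log2 difference 3.74, sums of 763 to 9716 FPKM in Plod1-/- Ang II mice), and none of 5 was called in the WT response. Endothelial markers were called higher in 2 of 6 in the Plod1-/- response and 3 of 6 in the WT response. Hepatocyte markers summed to 3.43 to 44.1 FPKM over 6 genes and none was called in either response. Among all genes, 8.38% were called higher and 5.51% lower in the Plod1-/- response, and 6.38% and 2.28% in the WT response. Under Ang II, 3.67% were called lower in Plod1-/- than in WT mice. The part of these cell types in the complement values was not tested.

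Within a mouse, the C1q chains kept nearly fixed proportions. C1qa was 2.31 to 2.82 times C1qc in FPKM over all 20 mice, while C1qa itself ranged from 33.8 to 1052 FPKM. C1qb shifted against the other chains. It was 0.942, 0.966, 0.902, 0.976 and 0.899 times C1qa in Plod1-/- Ang II mice, and between 0.622 and 0.886 in the other 15 mice, so that this group lay wholly above the rest. The means were 0.937 ± 0.036 there, 0.807 ± 0.062 in WT saline, 0.677 ± 0.048 in WT Ang II and 0.693 ± 0.038 in Plod1-/- saline mice (SD, n = 5). In Plod1-/- Ang II replicate 1, where C1q was lowest, the ratio was 0.942, inside the range of its group.

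The ratio of C3 to C4b separated the genotypes. C3 was 5.27, 3.47, 5.05, 4.45 and 4.02 times C4b in WT saline and 3.77, 4.30, 5.07, 4.64 and 4.55 times in WT Ang II mice. In Plod1-/- mice the ratio was 3.03, 3.36, 2.07, 1.71 and 3.05 under saline and 2.16, 1.496, 1.58, 1.61 and 2.13 under Ang II. All 10 Plod1-/- mice lay below all 10 WT mice, the nearest being 3.36 against 3.47. Both Ang II-treated mice numbered 1 lay within their genotype's range. C5ar1 was 4.97 ± 1.45 times C3ar1 in WT saline and 2.64 ± 0.32 times in Plod1-/- Ang II mice (SD, n = 5), with 3.36 in each of the other groups on average. These ratios were picked from 11 after their values were seen, so they describe these 20 mice and carry no test.

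**Figure D4:**
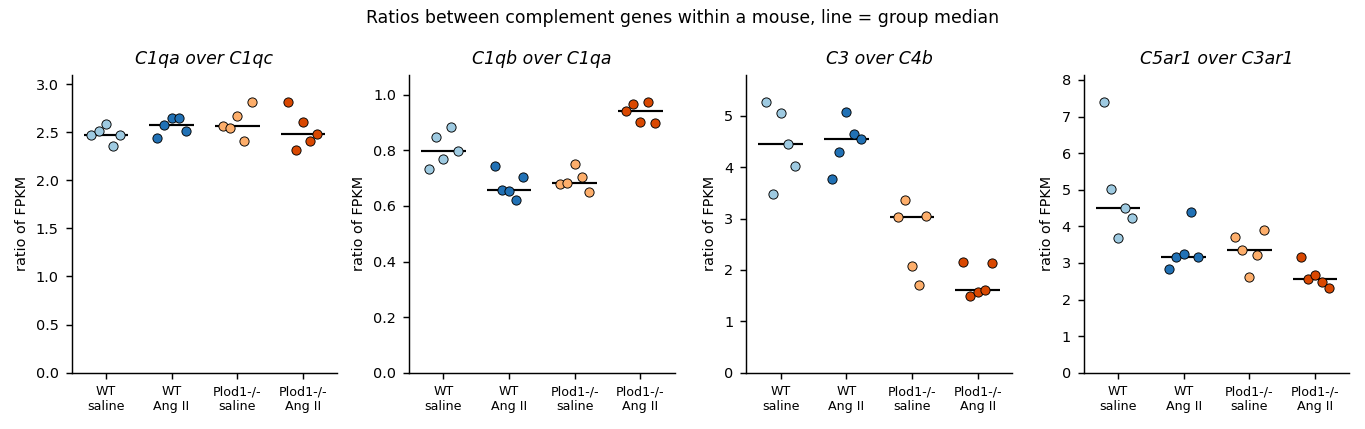
Ratios of FPKM between complement genes within a mouse (vertical axes from 0) in the 4 groups, 1 point per mouse with the group median as a line. C1qa over C1qc stays between 2.31 and 2.82, C1qb over C1qa is highest in Plod1-/- Ang II mice and C3 over C4b is lower in all Plod1-/- mice than in all WT mice.

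Across the 20 mice the 9 genes had different nearest genes, by Pearson r of log2(FPKM + 1) among 13237 genes, a description in which the differences between groups take part. C1qa was most like C1qc (r = 0.999), C1qb (r = 0.994) and Lyz2 (r = 0.987), which encodes the lysozyme of myeloid cells, and C1qb was followed after its sister chains by Fcgr3 (r = 0.990), an Fc receptor gene. C3ar1 was most like Lcp1, Itgb2 and Nfam1 (r = 0.993, 0.991 and 0.989), genes of leukocytes. C5ar1 was most like C3ar1 and Dok2 (r = 0.9749 and 0.972). C3 was most like Htra3, Cish and Mycl (r = 0.897, 0.891 and 0.891), and C4b most like Serpina3c, Ccdc122 and Cyp2f2 (r = 0.938, 0.934 and 0.933). For C2 and Cfb no r exceeded 0.793 and 0.745 (with Nmb and Dchs1).

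C3 and C4b had an r of 0.849 over the 20 mice, and 0.955 in the deviations from the group means, which hold no group difference. C3 with its receptor gene C3ar1 had 0.467 and 0.610 on the same measures. C1qa with C3 had 0.573 and 0.619, and C3ar1 with C5ar1 had 0.9749 and 0.956. The pair of C3 and C4b was thus close within groups. In the deviations the C1q chains had 0.994 to 0.995 with each other and 0.851 to 0.893 with the receptors. WT Ang II replicate 1 and Plod1-/- Ang II replicate 1, which lay outside the rest of their groups in these genes, take part in those values.

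The rest of the pathway was read from 45 other complement genes, listed by role, of which 17 to 21 passed the filter in a comparison. In the Plod1-/- response 7 of 20 rose and 1 fell (8.38% and 5.51% of all genes), with a median log2 difference of -0.35, against 0.05 for all genes. In the WT response 2 of 18 rose and 0 fell (limma; 6.38% and 2.28% of all genes, median 0.28, against -0.14 for all genes), and between the Ang II-treated groups 3 of 21 were higher and 2 lower in Plod1-/- mice (7.45% and 3.67%, median -0.32, against 0.12). Under saline 0 of 17 were higher and 1 lower (0.358% and 0.408%), and the difference of the responses was called higher in 3 of 21 and lower in 2 (9.69% and 6.36%).

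Of 6 other receptor genes listed, 3 reached the filter in the Plod1-/- comparison and all 3 rose, against 8.38% of all genes. They were Itgam and Itgb2, which encode the chains of complement receptor 3, and Vsig4, a C3b receptor gene of tissue macrophages. Itgam reached the filter only with all 5 Ang II-treated mice, so it was tested because it was high there. Itgam went from 0.711 ± 0.188 to 11.9 ± 7.4 (SD, n = 5) FPKM (log2 difference 2.71 ± 0.36, SE, limma adjusted p = 0.00028), and Itgb2 from 3.68 ± 1.56 to 55.8 ± 34.1 FPKM. Itgax, the gene of a chain of complement receptor 4, was below the filter and went from 0.272 to 2.07 FPKM (exact permutation p = 0.00794, the smallest possible), and C5ar2 from 0.638 to 2.01 FPKM (exact permutation p = 0.024). Under Ang II, Itgam and Itgb2 were also higher in Plod1-/- than in WT mice, by 2.25 and 2.58 on the log2 scale.

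Of the other convertase genes, Cfp, which encodes properdin, a stabiliser of the alternative convertase, rose from 16.9 ± 2.7 to 123 ± 75 (SD, n = 5) FPKM in Plod1-/- mice and was called in the difference of the responses (2.26 ± 0.54, SE, limma adjusted p = 0.0036). Cfd, the gene of factor D and one of the most abundant RNAs of fat cells, rose in both genotypes, from 148 ± 78 to 1029 ± 564 FPKM in WT and from 185 ± 88 to 1325 ± 1471 FPKM in Plod1-/- mice. Adipocyte markers were called higher in 4 of 4 in the WT response, as given above. In the Plod1-/- response 2 of 5 were called and all 5 were positive (median log2 difference 1.73). The part of adipocytes was not tested.

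The genes that start the pathways went in different directions. Fcna, a ficolin gene of the lectin pathway, rose from 2.94 ± 1.34 to 7.69 ± 2.29 (SD, n = 5) FPKM in Plod1-/- mice. Colec11, which encodes a collectin, fell from 4.48 ± 1.32 to 1.73 ± 0.68 FPKM there. It read 2.45 ± 0.59 FPKM in WT saline and 4.25 ± 1.28 FPKM in WT Ang II mice, and its responses differed by -1.59 ± 0.28 (SE, limma adjusted p = 0.00048). The fall in Plod1-/- mice was below the size required in 6 of 18 alternatives, down to -0.81. Colec12, a scavenger receptor gene, had log2 differences of -0.84 in Plod1-/- (adjusted p = 0.00021) and -0.87 in WT mice (adjusted p = 0.018), below the size required. C1ra and C1s1, the proteases that act with C1q, read 41.4 ± 5.7 and 28.6 ± 2.4 FPKM in saline-treated and 25.6 ± 9.1 and 20.7 ± 10.6 FPKM in Plod1-/- Ang II mice and were not called.

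Of the terminal pathway, which builds the membrane attack complex, C7 was the abundant member and was lower in Plod1-/- mice under both treatments. It read 142 ± 28 against 55.5 ± 34.7 (SD, n = 5) FPKM in WT and Plod1-/- mice under saline (log2 difference -1.56 ± 0.40, SE, limma adjusted p = 0.044), and 76.9 ± 30.8 against 21.3 ± 13.01 FPKM under Ang II (-1.92 ± 0.41, adjusted p = 0.0077), with no overlap in either. The call under saline was lost in 13 of 18 alternatives (log2 difference -1.85 to -1.21, adjusted p = 0.038 to 0.135), among them all that left out 1 mouse other than Plod1-/- saline replicate 1 or 2, and the call under Ang II in none. C8g, a small chain of C8, had a log2 difference of 0.91 in the WT response (adjusted p = 0.005), below the size required. Of 5 fibroblast markers, Pi16 was called lower in Plod1-/- mice in the same comparisons, at -1.13 and -1.43, and the other 4 were not called. The list's median was -0.75 under saline, with all 5 negative, and -0.14 under Ang II, with 2 of 5 positive, and the part of fibroblasts in the C7 values was not tested.

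Among the regulators, which hold complement in check, Vtn (vitronectin) rose in both genotypes, from 0.768 ± 0.693 to 5.40 ± 2.98 FPKM in WT and from 0.901 ± 0.526 to 3.12 ± 0.90 FPKM (SD, n = 5) in Plod1-/- mice. Cd59b, which encodes a blocker of the membrane attack complex, was lower in Plod1-/- Ang II than in WT Ang II mice, at 1.74 ± 0.79 against 4.60 ± 1.97 FPKM (log2 difference -1.004, limma adjusted p = 0.022), a call lost in 7 of 18 alternatives (adjusted p up to 0.064). Cd59a, its near copy, had -0.69 (adjusted p = 0.015) and Clu (clusterin) -0.99 in the Plod1-/- response (adjusted p = 0.0014), neither of them called. Reads of Cd59a and Cd59b may be shared. Cfi, the gene of factor I, was below the filter and went from 0.0674 to 0.597 FPKM in Plod1-/- mice (exact permutation p = 0.00794), against 0.126 and 0.156 FPKM in WT mice.

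**Figure D5:**
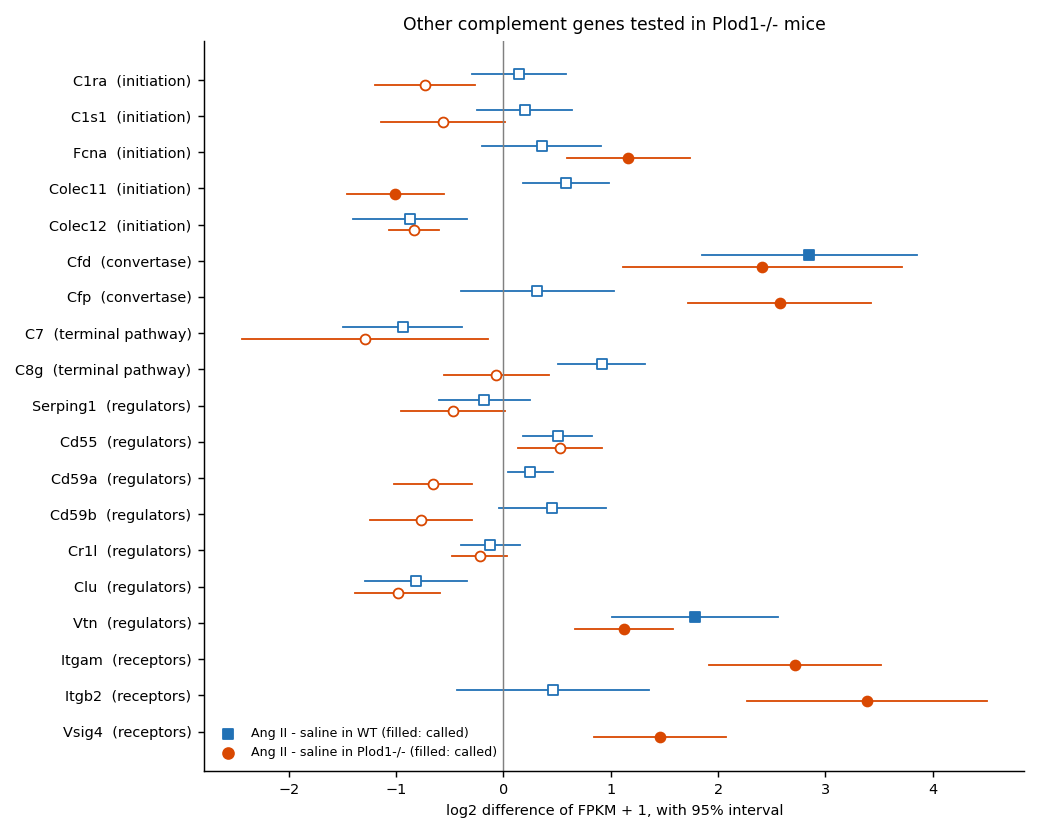
log2 differences of FPKM + 1 between Ang II-treated and saline-treated mice (horizontal axis) with 95% intervals, for other complement genes tested in Plod1-/- mice (circles) and, where tested, in WT mice (squares); filled symbols were called. Cfd and Vtn are filled in both genotypes, and Cfp, Itgam, Itgb2, Vsig4, Fcna and Colec11 in Plod1-/- mice.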

How the data were processed

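RNA of 20 abdominal aortas was sequenced (TruSeq RNA kit V2, which does not keep the strand). Per its methods, the study removed ribosomal reads, aligned with HISAT2 and quantified with stringtie, cuffquant and cuffnorm. The submitters' processing notes name Bowtie2 2.2.3, HISAT2 2.1.0 and HTSeq 0.6.0 on mm10. Each Ensembl gene has 1 FPKM value per mouse in the deposited table, scaled across libraries by the authors. Symbols and positions came from GENCODE mouse release M21 (GRCm38), which matched 43226 of 43422 genes.

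After division by 1 factor per library, all values of each member, and of 500 of 500 sampled genes, were whole multiples of 1 step per gene (tolerance 0.001), which were read as fragments. The members held 740 to 110228 fragments per mouse in C1qa, C1qb, C1qc, C3 and C4b, 57 to 7484 in C3ar1 and C5ar1 and 1 to 171 in C2 and Cfb. Library totals were not recovered, and relative depth ran from 0.897 to 1.08. Summed FPKM ran from 344207 to 437790. Mitochondrial genes made up 8.37 to 14.6% of it in WT saline and 14.6 to 29.1% in WT Ang II mice. In Plod1-/- mice they made up 9.93 to 16.2% under saline and 9.23 to 21.1% under Ang II. The part of this in the results was not tested. Fragments were not read back for all genes, and no count model was run.

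Genes that reached 1 FPKM in 5 or more of the fitted mice were compared on log2(FPKM + 1) with limma 3.58.1 (R 4.3.3, eBayes with a variance trend, two-sided), each comparison on its own 10 mice and the difference of responses on all 20. Genes below the filter had two-sided exact permutation tests. Simulated data with 200 changed genes in the Plod1-/- response gave back 167 at a log2 change of 1.5 (4 false calls among 11767 genes) and 183 at 3 (4 among 11765). The simulated noise was independent between genes, so these counts do not cover shifts of a whole mouse shared by many genes. Where nothing says that replicates are more than separate mice of a group, p-values set a group difference against the spread between these mice. In limma with eBayes that spread was moderated across genes. The complement genes, the other gene lists, motifs and tests were chosen with earlier results of these data known. Named genes are the members, the other complement genes called in any test or with the smallest adjusted p of their list, and the 3 genes most like each member, except 2 genes not reported here. Other genes, C1ra, C1s1, Cfi, Itgax, C5ar2 and Pi16 among them, were named after their values were seen. Markers of 14 cell types were counted. Plots used Python 3.11.15 and matplotlib 3.10.9.

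Alternatives changed 1 choice at a time: 0.1 as the pseudocount, all genes without the filter, a block for the replicate number, quantile-normalized values, variances per gene without eBayes, a joint fit of the 4 groups, weights per mouse, calls by adjusted p-value alone, both libraries with Xist RNA left out, and each mouse left out. Their use on the other complement genes was chosen after seeing the data.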

Additional observations from a re-analysis of the deposited data

Results flagged for a closer look

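In the WT Ang II group, replicate 1 lay far above the other 4 mice in C3 (789 FPKM), C4b (209.5 FPKM), C3ar1 (9.56 FPKM) and C5ar1 (27.1 FPKM), by more than 0.71 of the group's range in each. In the Plod1-/- saline group, replicate 4 lay far below the others in C3, at 28.6 FPKM. Chance gives such a gap in about 1 of 20 groups, and 5 of 36 were found here, 4 of them in 1 mouse. The same mouse held 481 FPKM of C1qa and a macrophage marker sum of 321 FPKM.

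The response to Ang II differed between the genotypes in 5 genes by the limma test of that difference on all 20 mice. On the log2 scale it was higher in Plod1-/- mice by 1.97 in C1qa, 2.64 in C1qb, 2.04 in C1qc, 3.11 in C3ar1 and 3.80 in C5ar1, with adjusted p between 0.00065 and 0.021. Each of the 5 was still called without any 1 of the 20 mice.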

How the results depend on the processing

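C1qa, C1qb, C1qc, C3ar1 and C5ar1 were called higher in the Plod1-/- response under all 18 alternatives. In the WT response the count of complement genes called, 1 in the report, was 0 with no filter on low values, with quantile normalization, with variances per gene and with the 4 groups in 1 fit, and ranged from 0 to 4 on leaving out 1 mouse. It was 4 without WT Ang II replicate 4 (C1qa, C1qc, C3 and C4b) and 0 in the other 9 such fits. Between the Ang II-treated groups it was 3 rather than 5 with no filter, and ranged from 3 to 5 with 1 mouse left out, at 3 without WT Ang II replicate 3 and without Plod1-/- Ang II replicate 3 or 4. Under saline it ranged from 0 to 1, the 1 being C5ar1 without WT saline replicate 3. For the difference of responses it was 3 rather than 5 with no filter and 5 whichever mouse was left out. With no filter more genes were tested, and C1qa and C1qc had adjusted p of 0.057 and 0.053 there. With weights per mouse, C3 was called in the Plod1-/- response (1.23, adjusted p = 0.047) and C4b between the Ang II-treated groups (1.301, adjusted p = 0.027). The cause of these moves was not tested otherwise.

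Directions turned in values that were never called. The difference of responses in C3, -0.26 in the report, was 0.16 with weights per mouse and 0.27 without both libraries with Xist RNA, and ranged from -0.60 to 0.23 with 1 mouse left out (0.23 without WT Ang II replicate 1, 0.14 without Plod1-/- Ang II replicate 1). That of C4b ranged from -0.051 (without Plod1-/- Ang II replicate 2) to 0.83. In the WT response C3ar1 ranged from -0.16 (without WT Ang II replicate 1) to 0.39, C5ar1 from -0.64 to 0.0018 (without WT saline replicate 1), C2 from -0.13 to 0.078 and Cfb from -0.074 to 0.061, and with a pseudocount of 0.1 C2 was -0.011 and Cfb -0.12. Under saline C1qa ranged from -0.49 to 0.081 and C3 from -0.39 to 0.084, both positive only without Plod1-/- saline replicate 4, and C2 from -0.022 to 0.10. Calls of other complement genes, 21 in all, kept their direction in each of the 415 alternative fits that tested them. They lost the call in 30, and 14 of the 21 never lost it. Among the 14, Itgam in the Plod1-/- response was tested in only 12 alternatives, against 18 for the other genes there. It fell below the filter without any 1 Ang II-treated mouse.

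With the replicate number as a block, the count between the Ang II-treated groups was 3, C1qa (adjusted p = 0.076, with 0.00016 to 0.076 over its alternatives) and C1qc (adjusted p = 0.083, with 0.00017 to 0.083) not being called. Cfp, Itgb2, Cd59b and, under saline, C7 also lost their calls under the block, and the counts of complement genes in the other comparisons were the same. Same-numbered mice correlated at -0.37 to 0.43 in their deviations from the group means, above 0.1 in 1 or 2 of 5 pairs per comparison, so they share a number and no pairing was assumed. Quantile normalization moved the median log2 difference of all genes from 0.053 to -0.055 in the Plod1-/- response, from 0.117 to -0.026 between the Ang II-treated groups and from 0.120 to -0.009 in the difference of responses. Low fragment counts limit C2 and above all Cfb, whose lowest mouse rested on 1 fragment, and intervals from fragment counts would cover counting error only.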

Other observations

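The make-up of complement RNA differed between the groups when each gene was taken as a share of the summed FPKM of the 9 genes in its mouse. C3 made up 26.8% on average in WT saline, 33.2% in WT Ang II and 27.4% in Plod1-/- saline mice, and 10.4% in Plod1-/- Ang II mice. The C1q chains had larger shares there, with C1qa at 34.1% and C1qb at 31.9% in Plod1-/- Ang II mice against 28.6% and 23.1% in WT saline mice. By mean FPKM C3 ranked 1 of 9 in WT Ang II mice and 4 of 9 in Plod1-/- Ang II mice.

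Within the Plod1-/- Ang II group the order of the mice was not the same for all genes. Replicate 3 had the most C1qa, C1qb and C1qc and the second lowest C3, at 72.2 FPKM, and its C1qa was 14.6 times its C3, against 0.61 to 2.26 times in the 15 mice of the other groups. Replicate 5 had the most C3, at 372 FPKM, and the second lowest C1qa, at 539 FPKM, a ratio of 1.45. These values describe single mice and no test was made.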
